A study of Mus musculus with 26 samples.

Results

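The arrays described here compared inguinal subcutaneous white fat of mice lacking ChREBPβ with that of their WT littermates. They were the 5 ChREBPβ KO arrays and the 7 WT arrays of the same line by sample title, 12 of the 26 arrays of the series. ChREBPβ KO mice carried a CRISPR/Cas9 deletion, made with a pair of guides, of exon 1b of Mlxipl, the gene that encodes ChREBP. The deletion is in the germline and so in every cell type. All mice of the series had fasted for 24 h and had then been refed for 18 h, so no unstimulated sample is part of the comparison. By the methods, they were refed with the food they had before the fast and with water that held 20% glucose. The methods give male mice on the C57BL6/J background. The age, and which of the ChREBPβ lines that were made went on the arrays, are not given in the sources used here. The other 14 arrays were of mice without either ChREBP isoform (total ChREBP KO, n = 7) and of the WT of that line (n = 7). They serve for comparison, and they also entered the filter, the normalization and the shared estimate of each probe's spread. Each array held the RNA of 1 sample. Nothing in the labels says how samples were drawn from animals beyond their numbers, so p-values measure the spread between these samples.

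ChREBP is a transcription factor that is switched on by metabolites of glucose. With its partner Mlx it binds paired E-box sequences called carbohydrate response elements and turns on genes of glycolysis, fructose uptake and fatty acid synthesis. The longer isoform, ChREBPα, is held back by an inhibitory domain at its start when glucose is low. ChREBPβ is read from the upstream exon 1b, lacks most of that domain, and is itself turned on by ChREBP in fat, which makes a feed-forward loop. In white fat, ChREBP is known for driving the synthesis of fatty acids from sugar after a meal.

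The starts of Mlxipl and Vps37d are shown by their promoter windows, the 250 bases before each start in RefSeq on GRCm38.p6, because both Mlxipl and its neighbour Vps37d were among the genes that fell. RefSeq gives Mlxipl a pair of starts that lie 17001 bases apart, and Vps37d starts 11624 bases before the upstream one, on the other strand. The windows of Mlxipl at chr5:135089640-135089889 and at chr5:135106641-135106890 are on the plus strand, and that of Vps37d at chr5:135078267-135078516 is on the minus strand. Capitals mark the E-box letters CACGTG.
Mlxipl, upstream start: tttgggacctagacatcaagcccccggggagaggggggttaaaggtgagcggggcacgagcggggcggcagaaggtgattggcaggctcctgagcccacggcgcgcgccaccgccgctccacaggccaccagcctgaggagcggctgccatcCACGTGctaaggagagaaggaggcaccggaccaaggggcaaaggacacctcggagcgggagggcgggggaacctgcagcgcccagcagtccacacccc
Mlxipl, downstream start: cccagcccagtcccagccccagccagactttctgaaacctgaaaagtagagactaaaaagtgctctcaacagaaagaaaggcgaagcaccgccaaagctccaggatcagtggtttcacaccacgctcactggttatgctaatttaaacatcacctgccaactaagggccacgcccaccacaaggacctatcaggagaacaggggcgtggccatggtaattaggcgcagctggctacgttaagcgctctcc
Vps37d: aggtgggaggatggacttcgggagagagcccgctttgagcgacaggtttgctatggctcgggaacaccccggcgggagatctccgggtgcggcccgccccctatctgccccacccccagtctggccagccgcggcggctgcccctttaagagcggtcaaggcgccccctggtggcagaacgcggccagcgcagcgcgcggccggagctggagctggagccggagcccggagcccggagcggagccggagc

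The upstream Mlxipl window held 1 E-box, which begins 98 bases before the start (position -98), and the other windows shown held none. Of all 32851 mouse windows of this length, 6.02% held the E-box on either strand, so this match is a description and not a site.

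The 12 arrays were alike in signal. Medians of spot intensity ranged from 74 to 107.5 and medians of background from 15 to 23, both on the scanner's linear scale. Each array had from 71.2% to 76.5% of its 59305 spots well above background, with 0 saturated. Values below are log2 intensities after quantile normalization, and a difference of 1 is a doubling. Differences are KO minus WT with their standard error (SE) or 95% interval, and "called" means an adjusted p under 0.05 by limma over all 38832 probes tested. The precision is limited by the number of arrays, and in bulk tissue fewer cells of a type cannot be told apart from less RNA per cell. Of the markers of other cell types, skeletal muscle genes varied most, with a mean log2 intensity between 6.64 and 12.95 on KO arrays and between 6.21 and 12.28 on WT arrays. KO replicate 4 and WT replicate 1 were the highest, and the groups overlapped throughout.

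Mlxipl mRNA fell to 34.9% of its WT level and was the clearest change on these arrays. At probe A_55_P2119957, with its target at chr5:135613705-135613764 of mm9, the KO replicates 1, 2, 4, 5 and 6 read 14.35, 13.93, 14.05, 14.36 and 14.10. The WT arrays had a lowest value of 15.24, a median of 15.63 and a highest value of 16.18. Every KO array lay below every WT array, by a gap wider than the spread of the KO arrays. The difference was -1.52 (SE 0.13, limma adjusted p = 6.195e-07). In total ChREBP KO the same probe fell by 2.29 on the log2 scale, to 20.5% of its own WT, and the effects differed by 0.77 (interaction, limma adjusted p = 0.0034).

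This probe does not check the deletion. It lies near the 3′ end of the transcript NM_021455, far downstream of exon 1b, and so can read transcripts from either start. Of the other Mlxipl probes, A_55_P2045158 is assigned to the same transcript. A_55_P2728555 is assigned to the transcript BC064053, and which transcripts it reads was not worked out. At A_55_P2728555 the KO arrays read 10.44, 10.24, 10.50, 10.24 and 10.45 in the same order, and the WT arrays ran from 10.68 over 10.996 to 11.39. The groups did not overlap, but the difference of -0.68 (SE 0.14) missed the threshold (limma adjusted p = 0.054). At A_55_P2045158 the KO arrays ran from 11.41 to 11.88 around the WT arrays, from 11.55 to 11.84, and the difference was 0.04 (SE 0.08, limma adjusted p = 0.97).

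The Mlxipl probes disagree, so parts of their sequences are shown. The first 30 bases of A_55_P2119957 and of A_55_P2045158, and the last 30 bases of A_55_P2728555, are given as the array files list them.
A_55_P2119957, bases 1 to 30: ggcatcttgcatgaatgtagatgtgtgtgt
A_55_P2045158, bases 1 to 30: tccgaatatattctagaactgggcatggtg
A_55_P2728555, bases 31 to 60: tactacacagagaaaccctgtctcaaaaaa
The last of these probes shared a word of 20 bases with 9 other probes of the array, and the other Mlxipl probes shared such a word with 0 others. Only exact words among the array's own probes were searched. A count of 0 therefore does not show that a probe reads Mlxipl alone. A_55_P2045158 also did not pass the threshold in total ChREBP KO, where it differed by -0.13 (limma adjusted p = 0.158).

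**Figure D1:**
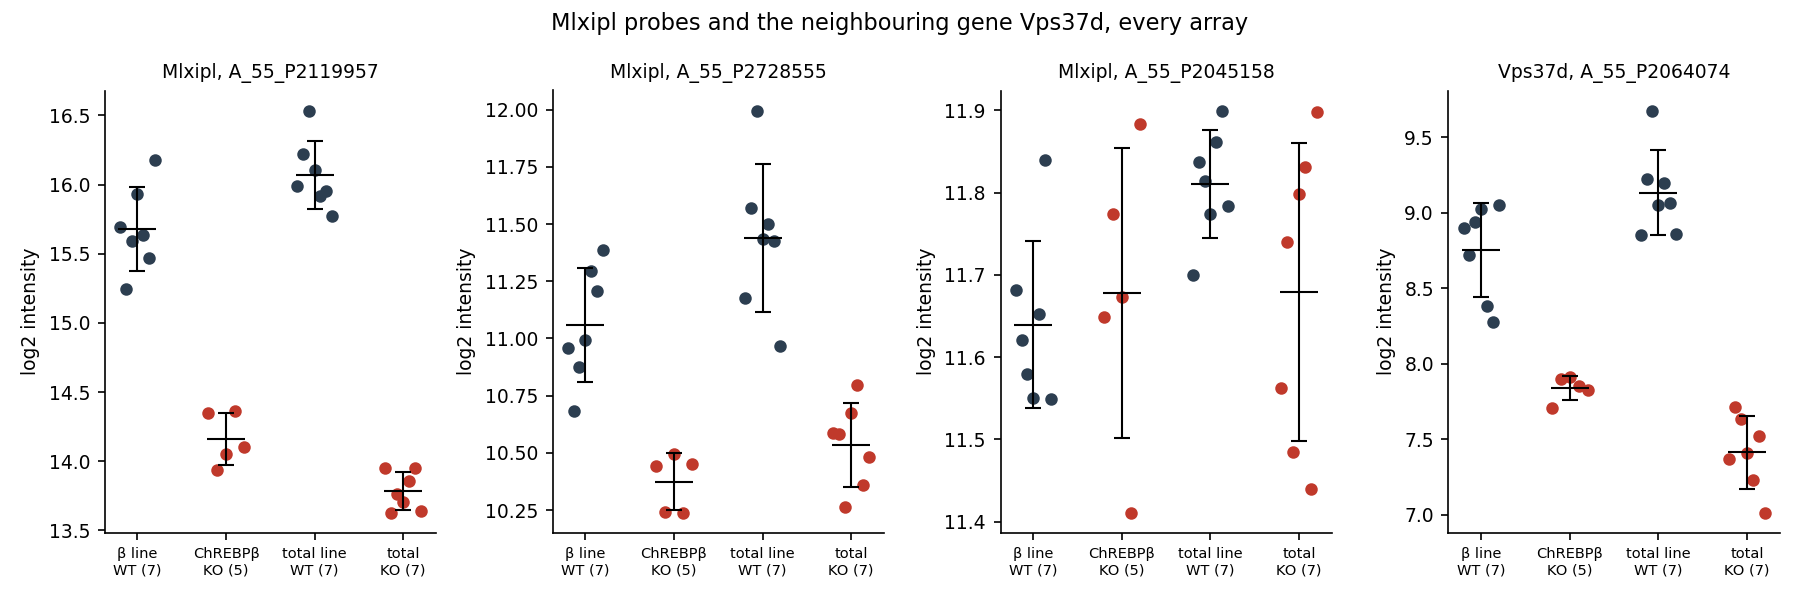
Log2 intensity (vertical axis) of the 3 Mlxipl probes and of Vps37d on every array, by group, with a point per array and a bar for the mean and its SD. At A_55_P2119957 the ChREBPβ KO arrays sit between 13.93 and 14.36, below all WT arrays of their line, while A_55_P2045158 does not separate the groups.

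Across the array 15 probes of 14 genes were called, 0.0386% of the probes tested. Of these, 13 probes of 12 genes were lower in KO, 0.0335% of the probes tested, and 2 were higher. For total ChREBP KO, on the same array design, 17667 probes were called, which is 45.5%. The difference between the KO effects was called for 8755 probes, 22.5%. All 12 genes that fell in ChREBPβ KO were also called lower in total ChREBP KO, and for 11 of them the fall was larger there by the interaction. The remaining gene, Gprin2, was well above background on no array of either KO, so its effects cannot be compared. Leaving out Gprin2 and Prss35, which was not well above background in total ChREBP KO, the ChREBPβ KO effect on the log2 scale ran from 38.8% of the total effect at Adcy10 A_51_P256747 to 66.5% at Mlxipl.

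The number of calls hung on how the spread was estimated and on single arrays. Fitted on the 12 arrays of the line alone, with no spread borrowed from the total line, 2 probes were called, Mlxipl A_55_P2119957 and a further probe of Gja1. With slide as a fixed block, 0 probes were called by limma, against 2018 at an unadjusted p under 0.05, and with the replicate block, 5. Leaving out 1 array gave between 2 calls (without KO replicate 6, where Mlxipl and Gprin2 stayed) and 106 (without KO replicate 4). The count also moved more than 1.5 times without KO replicate 2 (7 calls), KO replicate 5 (6), WT replicate 2 (27), WT replicate 4 (7), WT replicate 7 (55) and WT replicate 8 (9). None of the 15 probes changed direction in the 12 fits without 1 array or the 18 fits under other settings. Within each wash batch that held both groups, all 15 moved the same way as in the pooled comparison. For Mlxipl A_55_P2119957 the within-wash differences were -1.79, -1.39 and -1.48, from 1 to 3 arrays a group.

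Hk2 encodes hexokinase 2, which traps glucose in the cell as glucose 6-phosphate. Its KO arrays read 13.31, 13.01, 13.34, 13.08 and 12.73, and its WT arrays ran from 13.52 over 13.84 to 14.16. No KO array reached the lowest WT array, and the difference was -0.78 (SE 0.12, limma adjusted p = 0.00859), against -1.88 in total ChREBP KO.

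Tkt encodes transketolase, an enzyme of the pentose phosphate pathway. Its called probe A_52_P631197 is a dim one, assigned to the transcript ENSMUST00000160189. It read 7.20, 5.65, 7.15, 6.84 and 6.77 on KO arrays and from 7.30 over 7.95 to 8.25 on WT arrays. KO replicate 2 was far below the other KO arrays, and the groups did not overlap (difference -1.13, SE 0.21, limma adjusted p = 0.0368). The brightest Tkt probe, A_51_P394515, differed by -0.42 (SE 0.09, limma adjusted p = 0.113), and the probe A_66_P121998 by -0.12.

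Nat8l encodes the enzyme that makes N-acetylaspartate from aspartate and acetyl-CoA in mitochondria, and is known in fat as well as in brain. Its KO arrays read 12.78, 12.42, 12.33, 12.09 and 11.95, against 12.57 over 13.21 to 13.67 on WT arrays. KO replicate 1 lay above the lowest WT array, so the groups overlapped. The difference was -0.88 (SE 0.17, limma adjusted p = 0.0439), the weakest of the calls, and the total ChREBP KO effect was -1.55.

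Prss35, which encodes a serine protease-like secreted protein, read 6.32, 5.53, 6.26, 5.50 and 4.97 on KO arrays and from 6.63 over 7.95 to 8.68 on WT arrays. These values are of probe A_66_P109981. The groups did not overlap, and the difference was -2.01 (SE 0.30, limma adjusted p = 0.00793), or 24.8% of WT. This probe was also called lower in total ChREBP KO, where 0 of 7 KO arrays read it well above background. Other tested probes of Prss35 were not called in ChREBPβ KO. A_55_P2111985 differed by -0.76 (limma adjusted p = 0.0534), with 0 KO arrays well above background, and A_66_P121940 by -0.24 (limma adjusted p = 0.682).

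Sorcs2 encodes a sorting receptor of the VPS10 family. Its KO arrays read 8.27, 7.33, 8.78, 7.73 and 7.53, and its WT arrays ran from 8.69 over 9.82 to 10.94. KO replicate 4 lay just above WT replicate 2, and the difference was -1.90 (SE 0.32, limma adjusted p = 0.0178), against -4.80 in total ChREBP KO. That was at A_55_P2812793. Other tested probes of Sorcs2 differed by -0.93 (limma adjusted p = 0.268) and -0.60 (limma adjusted p = 0.458) in ChREBPβ KO and were not called.

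Adcy10 encodes the soluble adenylyl cyclase, which makes cAMP in response to bicarbonate. It was called at 2 of its 4 tested probes. At A_51_P256747 the KO arrays read 9.01, 8.29, 9.02, 7.88 and 7.57 and the WT arrays ran from 9.09 over 10.02 to 10.94. The groups stood just apart, with a difference of -1.75 (SE 0.32, limma adjusted p = 0.0350). At A_55_P2715618 it was -1.46 (SE 0.26, limma adjusted p = 0.0307). The remaining 2 probes differed by -1.71 (limma adjusted p = 0.0540) and -0.81 (limma adjusted p = 0.268).

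Mapk8ip1 encodes JIP1, a scaffold for JNK signalling. It read 11.82, 11.25, 11.50, 11.20 and 11.12 on KO arrays and from 11.84 over 12.35 to 13.08 on WT arrays. The highest KO array came within 0.02 of the lowest WT array without overlap, and the difference was -0.9999 (SE 0.18, limma adjusted p = 0.0344). Cables1, which encodes a Cdk-binding protein, read 12.80, 12.53, 12.84, 12.66 and 12.28 against 13.04 over 13.18 to 13.57, with no overlap and a difference of -0.63 (SE 0.11, limma adjusted p = 0.0256).

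Susd1, a gene for a sushi-domain protein, was called at A_66_P111070 alone. The KO arrays read 7.14, 6.93, 7.17, 7.11 and 6.50, below all WT arrays, from 7.51 over 7.94 to 8.47. The difference was -1.01 (SE 0.16, limma adjusted p = 0.00972). The 3 other tested probes of Susd1 target other transcripts and differed by 0.10, 0.05 and -0.04.

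Gprin2, a gene related to regulators of neurite outgrowth, had a signal near background. Its probe was well above background on 0 of 5 KO arrays and on all 7 WT arrays, so only a bound can be given there. KO arrays read 4.49, 4.36, 4.46, 4.44 and 4.43 and WT arrays from 4.97 over 5.43 to 5.88, without overlap. Expression was at least 1.77-fold higher in WT, set against the lowest signal well above background on each KO array. This bound was not tested. The limma adjusted p of 0.000123 belongs to the measured difference of -0.95, which rests on KO values not well above background. The probe was also called lower in total ChREBP KO, again with 0 KO arrays well above background, so it passed the filter through WT arrays only. The other tested probe of Gprin2 differed by -0.40 (limma adjusted p = 0.340).

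A pair of genes rose. The uncharacterized LOC105242387 read 5.59, 5.82, 5.79, 6.44 and 6.20 on KO arrays and from 5.05 over 5.27 to 5.63 on WT arrays, a difference of 0.69 (SE 0.11, limma adjusted p = 0.0145). Castor1, named Gatsl3 on the array, encodes an arginine sensor of the mTORC1 pathway. It read 6.75, 6.86, 6.51, 6.88 and 6.86 on KO arrays and from 6.20 over 6.30 to 6.52 on WT arrays. In both genes the lowest KO array fell inside the WT range, and Castor1 differed by 0.45 (SE 0.08, limma adjusted p = 0.0336). Both were also called higher in total ChREBP KO. Castor1 differed there by 0.38 (limma adjusted p = 0.000195). LOC105242387 differed by 0.29 (limma adjusted p = 0.0270), from low means of 4.71 in total KO and 4.43 in its WT.

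**Figure D2:**
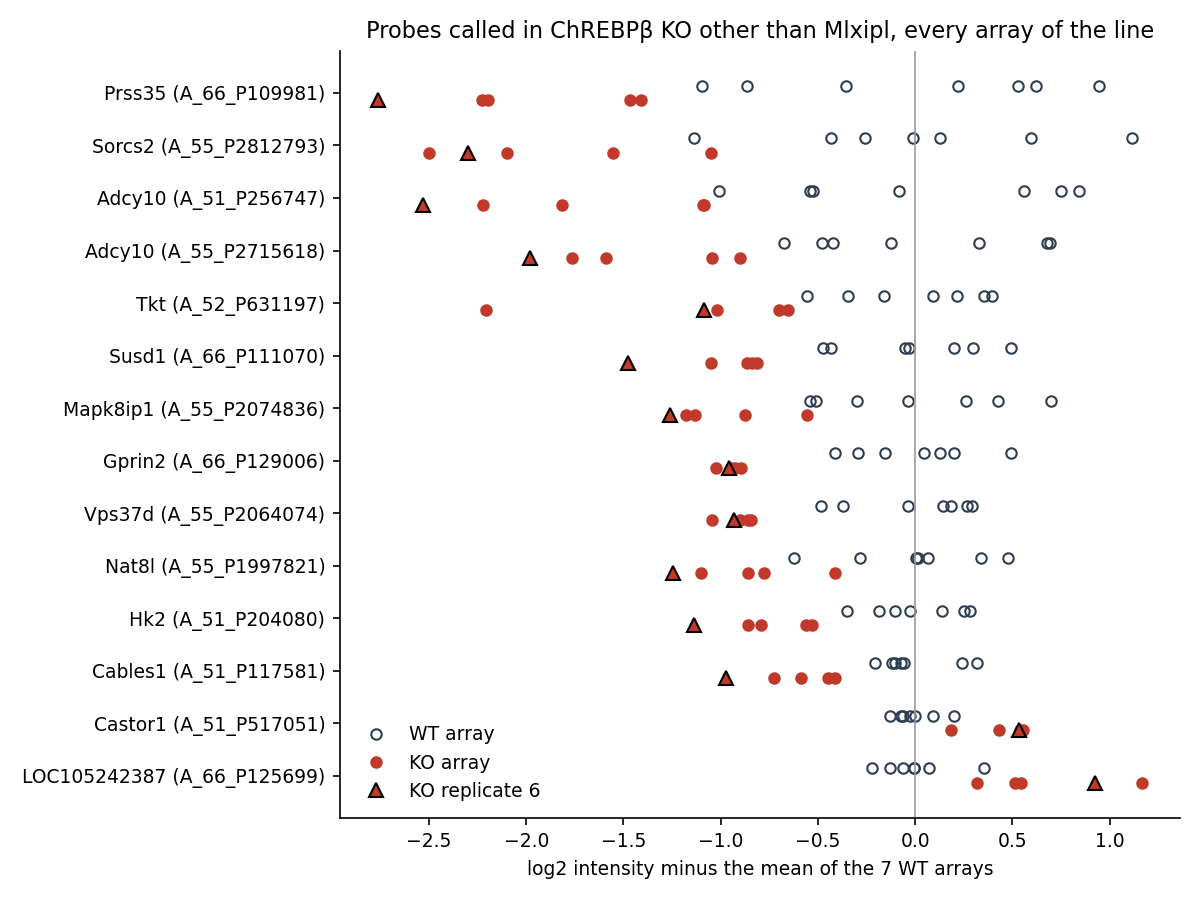
Log2 intensity minus the WT mean (horizontal axis) for the 14 called probes other than the Mlxipl probe, with open circles for the 7 WT arrays, filled circles for KO arrays and a triangle for KO replicate 6. KO replicate 6 is the lowest KO array at 8 of the 12 probes that fell, and WT arrays of Sorcs2, Prss35 and Adcy10 spread more widely than those of Cables1 or Hk2.

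The same arrays stood at the ends of most of these genes. At all 12 probes that fell, other than Mlxipl, KO replicate 1 or 4 was the highest KO array. WT replicate 8 was the highest and WT replicate 7 the lowest WT array at 8 each of these 12 probes. KO replicate 4 was also the array highest in skeletal muscle markers, and the part of those cells in these values was not tested.

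Vps37d encodes a subunit of the ESCRT-I complex, which sorts cargo into multivesicular bodies. It is the immediate upstream neighbour of Mlxipl, as the promoter windows show. Its probe at chr5:135548824-135548883 of mm9 read 7.71, 7.90, 7.91, 7.85 and 7.82 on KO arrays and from 8.27 over 8.90 to 9.05 on WT arrays. The KO arrays were tight and wholly below the WT arrays, and the difference was -0.92 (SE 0.14, limma adjusted p = 0.00859). Vps37d fell by 1.72 on the log2 scale in total ChREBP KO.

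Among the 16 further genes with tested probes within 300 kb of the Mlxipl probes, 0 were called by limma, against 0.0512% of all genes, and 1 had an unadjusted p under 0.05, which 3.62% of all genes had with a lower and 4.18% with a higher mean in KO. That gene was Pom121, for a nuclear pore protein, at -0.21 (limma adjusted p = 0.456). Their differences ran from -0.21 to 0.33 (Cldn3, a tight junction gene), and for 13 of them the 95% interval lay within 1.5-fold either way. It was wide for Cldn3, from -0.64 to 1.30, and for Fzd9, a Wnt receptor gene, from -0.66 to 0.51. Tbl2, which follows Mlxipl downstream, differed by -0.03 (SE 0.09) in ChREBPβ KO.

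**Figure D3:**
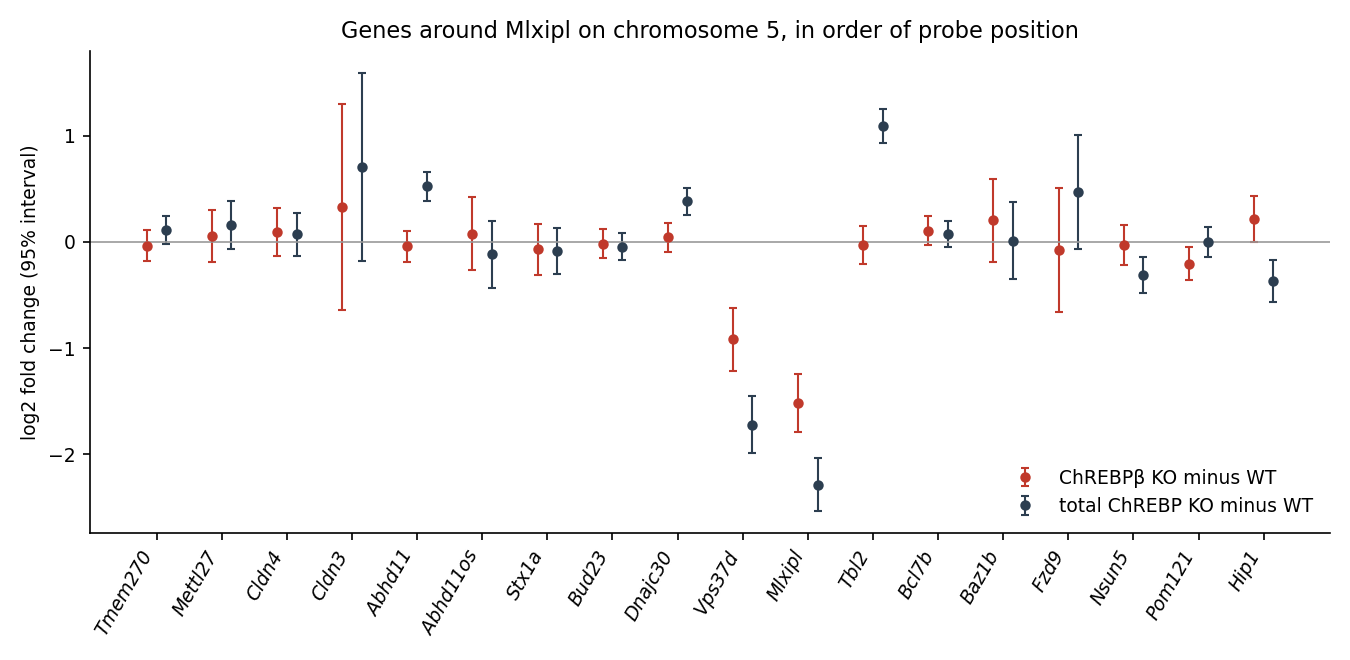
Log2 fold change with its 95% interval (vertical axis) of the genes around Mlxipl, in order of probe position on chromosome 5, in ChREBPβ KO and in total ChREBP KO. In ChREBPβ KO the differences of Mlxipl and Vps37d, at -1.52 and -0.92, lie farthest below 0, and of the other 16 genes the interval of Pom121 alone leaves out 0.

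Of the 14 called genes, 9 had a promoter window in the RefSeq table, 10 windows in all. The E-box was in windows of 2 of them, Mlxipl and Susd1. The stricter pair of motifs CANGNG and CNCNTG, set 5 bases apart as in a carbohydrate response element, was in 0 of them. Over all windows that pair was found in 0.454%. Absence from these windows says nothing of sites elsewhere. The Susd1 window, on the minus strand at chr4:59438634-59438883 of GRCm38.p6, held its E-box 164 bases before the start (position -164).
Susd1: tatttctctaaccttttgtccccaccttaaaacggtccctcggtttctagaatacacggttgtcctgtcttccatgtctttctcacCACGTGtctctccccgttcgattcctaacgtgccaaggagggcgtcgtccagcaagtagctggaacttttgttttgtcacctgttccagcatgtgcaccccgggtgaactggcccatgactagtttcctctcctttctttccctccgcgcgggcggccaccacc

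Among genes that were not called and had no overlap between KO and WT arrays, the 10 with the smallest p were all lower in KO and all called lower in total ChREBP KO. Of all probes, 45.5% were called in total ChREBP KO, in either direction. The limma adjusted p of the 10 genes in ChREBPβ KO ran from 0.0522 to 0.126. Called or not, KO and WT arrays did not overlap at the brightest probe of 93 of 25383 genes (0.366%), 65 lower and 28 higher. Slc2a4 encodes GLUT4, the insulin-responsive glucose transporter. Its KO arrays read 15.84, 15.90, 15.75, 15.68 and 15.63 and its WT arrays ran from 16.00 over 16.18 to 16.37, a difference of -0.41 (SE 0.08, limma adjusted p = 0.0606) between tight groups. Pygl encodes liver glycogen phosphorylase, which releases glucose from glycogen. It differed by -0.64 (SE 0.13, limma adjusted p = 0.0558), from KO arrays between 14.92 and 15.46 and WT arrays between 15.52 and 16.33.

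The remaining genes of this group have other roles. Cpeb2, a regulator of mRNA translation, differed by -0.98, Gja1, the gap junction gene for connexin 43, by -0.82, and Rnf144b, a ubiquitin ligase gene, by -0.76. The noncoding RNA Gm35986 differed by -1.54, and in total ChREBP KO its probe was well above background on 0 of 7 arrays. Zadh2, Shisa8, Sppl2b and Tmprss9 differed by between -0.46 and -0.32, and the last pair lie near each other on chromosome 10. Shisa8 and Tmprss9 were dim, with 3 and 1 of 5 KO arrays well above background.

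The genes that the study followed for lipogenesis and thermogenesis gave no call, where 0.0512% of all genes were called. Of 12 such genes, 11 were tested, and Cox5b did not pass the filter on dim probes. Elovl6, which elongates palmitate, read 14.89, 15.08, 14.91, 14.84 and 14.28 on KO arrays and from 14.80 over 15.21 to 15.79 on WT arrays. The groups overlapped, and the difference was -0.43 (SE 0.15, unadjusted p = 0.00981, limma adjusted p = 0.444), against -3.30 in total ChREBP KO (interaction, limma adjusted p = 9.71e-10). Acaca, for acetyl-CoA carboxylase 1, differed by -0.22 with a 95% interval from -0.47 to 0.03, against -2.02 in total ChREBP KO.

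Srebf1, the gene of the insulin-driven lipogenic factor SREBP1, differed by -0.36 (unadjusted p = 0.00559, limma adjusted p = 0.392) in ChREBPβ KO and by -0.14 in total ChREBP KO. Fasn, for fatty acid synthase, read 18.84 on all 5 KO arrays and from 18.53 to 18.84 on WT arrays. That value is the top rank of the quantile normalization, so a difference there can hardly be seen, and it was 0.06. Scd1, for stearoyl-CoA desaturase, differed by 0.09 (95% interval from -0.11 to 0.30) and Srebf2, the main regulator of sterol synthesis, by 0.10.

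Ucp1, the uncoupling protein of brown and beige fat, varied widely within both groups. The KO arrays read 8.62, 5.67, 6.09, 7.74 and 7.21, and the WT arrays ran from 6.51 over 8.76 to 11.57. The difference of -1.54 had a 95% interval from -3.23 to 0.14, which includes 0 and does not reach the -6.87 of total ChREBP KO (interaction, limma adjusted p = 0.00133). Cidea, a lipid droplet gene also used as a beige fat marker, differed by -0.83 (unadjusted p = 0.0175, limma adjusted p = 0.507). Prdm16, Cpt1b and Cox8b differed by 0.09, -0.06 and -0.34, each with an interval that includes 0. For 5 of the 11 genes the 95% interval lay within 1.5-fold either way.

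How small a change these arrays could show was worked out from the same fit. The 95% interval of a difference had a median half-width of 0.21, or 1.16-fold. For 80% power at the p of the last called probe, 1.70e-05, a median probe needed a 1.56-fold change, with quartiles of 1.44 and 1.81. At an unadjusted p of 0.05 it needed 1.23-fold. In total ChREBP KO, where the threshold lay at a much higher p because so many probes passed, 1.24-fold was enough. The standard errors of both comparisons were close, with medians of 0.10 and 0.09.

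Most probes can be bounded. The interval lay within 1.5-fold either way for 88.0% of the probes and within 2-fold for 96.7%. It lay wholly beyond 1.5-fold for 27 probes that were lower in KO and 3 that were higher. A difference of more than 1 on the log2 scale, called or not, was seen at 82 probes in ChREBPβ KO and at 2651 in total ChREBP KO.

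Below the threshold the differences leaned on the lower side only among the smallest p-values. At an unadjusted p under 0.05 there were 3074 probes, 7.92% of those tested, 1308 lower and 1766 higher. At p under 0.001 there were 140 probes, 90 of them lower, and at a limma adjusted p under 0.2 there were 74, 58 of them lower. The share of probes with no difference was estimated at 94.4% by limma's convex decreasing density method, and at 32.5% in total ChREBP KO.

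Small concerted differences were then described over 15 gene lists of sugar and fat metabolism and related signalling, with 1 probe for each gene. All these lists were chosen with earlier results of these data known, so their directions are not independent evidence. Over all 25383 genes 3.62% were lower at an unadjusted p under 0.05, 4.18% were higher, and the median difference was -0.0016. In all, 200 genes of the lists were tested. Of these, 38 were lower and 12 higher at that p, and 4 were called, against 0.0512% of all genes.

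The list with the most negative median was that of pyruvate entry into mitochondria and citrate export, the route that carries carbon from sugar to fatty acid synthesis. Of its 17 tested members 16 had lower means in KO, 9 of them at an unadjusted p under 0.05, and 0 were called. The median difference was -0.25, and -0.46 in total ChREBP KO. Pdk4, a kinase that shuts down pyruvate dehydrogenase, was the exception at 0.24.

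Slc25a1, the citrate carrier that exports citrate from mitochondria, differed most in this list. Its KO arrays read 15.48, 14.53, 14.90, 14.66 and 14.37, and its WT arrays ran from 14.99 over 15.71 to 16.42. KO replicate 1 lay inside the WT range, and the difference was -0.96 (SE 0.21, unadjusted p = 0.000113, limma adjusted p = 0.113). The subunits of pyruvate dehydrogenase followed, with Dlat (E2) at -0.65 (limma adjusted p = 0.136), Pdhb at -0.35 and Pdha1 at -0.27. The carrier subunits Mpc2 and Mpc1, which import pyruvate, differed by -0.41 and -0.38. Acly, which splits the exported citrate into acetyl-CoA, differed by -0.24, and by -2.29 in total ChREBP KO.

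Not all members differed from their total ChREBP KO effect. The interaction was called for 6 of the 17 genes, against 22.5% of all probes. It was not called for Slc25a1 (total -1.37, limma adjusted p = 0.313), Dlat (total -0.90, limma adjusted p = 0.403) or Mpc2 (total -0.36, limma adjusted p = 0.863), which does not show that these effects were equal. Per array, the mean level of the list ran from 14.48 to 14.91 in KO and from 14.69 to 15.32 in WT, so the groups overlapped.

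Known targets of ChREBP gave the next most negative median. Of 24 tested, 16 had lower means, 10 of them at an unadjusted p under 0.05 against 1 that was higher (Txnip, 0.23), and 0 were called. The median difference was -0.17, and -0.78 in total ChREBP KO. This list, like the others, was chosen with results of these arrays known, so its direction is not independent evidence.

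Slc2a5, the fructose transporter GLUT5, differed most among the targets. Its KO arrays read 12.45, 10.47, 12.64, 11.31 and 10.55, and its WT arrays ran from 12.54 over 13.21 to 14.005. KO replicate 4 lay just inside the WT range, and the difference was -1.84 (SE 0.48, unadjusted p = 0.000681, limma adjusted p = 0.247). In total ChREBP KO, with its probe above background on 2 of 7 KO arrays, it was -9.01, and the effects differed (interaction, limma adjusted p = 2.52e-08). Rgs16, a regulator of G protein signalling, differed by -0.97, Acacb, for acetyl-CoA carboxylase 2, by -0.65, and Pnpla3, a lipase-family gene of lipid droplets, by -0.45 with no overlap of the groups. Fgf21, a hormone gene turned on by sugar, differed by 0.04 (95% interval from -0.59 to 0.67) in ChREBPβ KO and by -3.43 in total ChREBP KO.

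The core glucose-using pathways differed in a few members. In glycolysis 5 of 19 tested genes were lower at an unadjusted p under 0.05 and 0 higher. They included Pfkl, the liver-type phosphofructokinase, at -0.63 and Gpi1, phosphoglucose isomerase, at -0.45. The list's median was -0.03. In the pentose phosphate pathway 4 of 9 were lower, with Tkt, Pgls, Taldo1 and Pgd between -0.42 and -0.23, and the median was -0.08. In glucose and fructose entry 12 of 15 had lower means, 3 of them at that p, with a median of -0.07, and Slc2a10, a transporter gene, was higher at 0.32.

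In de novo lipogenesis, which overlaps the target list, 6 of 16 genes were lower at an unadjusted p under 0.05 and 0 higher, and the median was -0.08. In triglyceride assembly 4 of 12 were lower and Pck1 was higher. Pck1 makes the glycerol backbone of stored fat from pyruvate in fasting. It read 15.55, 15.64, 14.68, 15.51 and 16.28 on KO arrays and from 14.27 over 14.88 to 14.94 on WT arrays. Only KO replicate 4 lay within the WT range, and the difference was 0.76 (SE 0.19, unadjusted p = 0.000472, limma adjusted p = 0.211), against 2.73 in total ChREBP KO.

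The lists of fat use had medians near 0. Lipolysis and lipid droplets had a median of 0.04 and 0.72 in total ChREBP KO, with 3 genes higher (Plin4, G0s2 and Plin1, between 0.21 and 0.43) and Cidea lower at an unadjusted p under 0.05. In fatty acid oxidation, Cpt1a, the gate of fatty acids into mitochondria, was higher at 0.56 (unadjusted p = 0.00969, limma adjusted p = 0.443), and the median was 0.01. Cholesterol synthesis had a median of 0.01, and its member Hmgcs1, for an early enzyme of the pathway, differed by 0.30 (limma adjusted p = 0.545).

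Among signalling genes, Grb14, which blocks the insulin receptor, differed by 0.86 (unadjusted p = 0.00568, limma adjusted p = 0.395) in ChREBPβ KO and by 0.02 in total ChREBP KO. The interaction was not called (limma adjusted p = 0.118). Insulin signalling had a median of -0.03 over 20 genes. Pde4b, a phosphodiesterase that breaks down cAMP, was higher at 0.52 in ChREBPβ KO and differed by -0.68 in total ChREBP KO, and here the effects differed (interaction, limma adjusted p = 0.000173). Of the ChREBP partners, Mlx differed by -0.33 (unadjusted p = 0.0395, limma adjusted p = 0.597).

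For 0 of the 15 lists did the mean level separate the KO from the WT arrays. Within the 3 wash batches that held both groups, the differences of the pyruvate and citrate list were -0.39, -0.09 and -0.25 and those of the ChREBP targets -0.29, -0.23 and -0.11. Leaving out 1 array moved the medians of these lists between -0.32 and -0.16 and between -0.23 and -0.12.

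**Figure D4:**
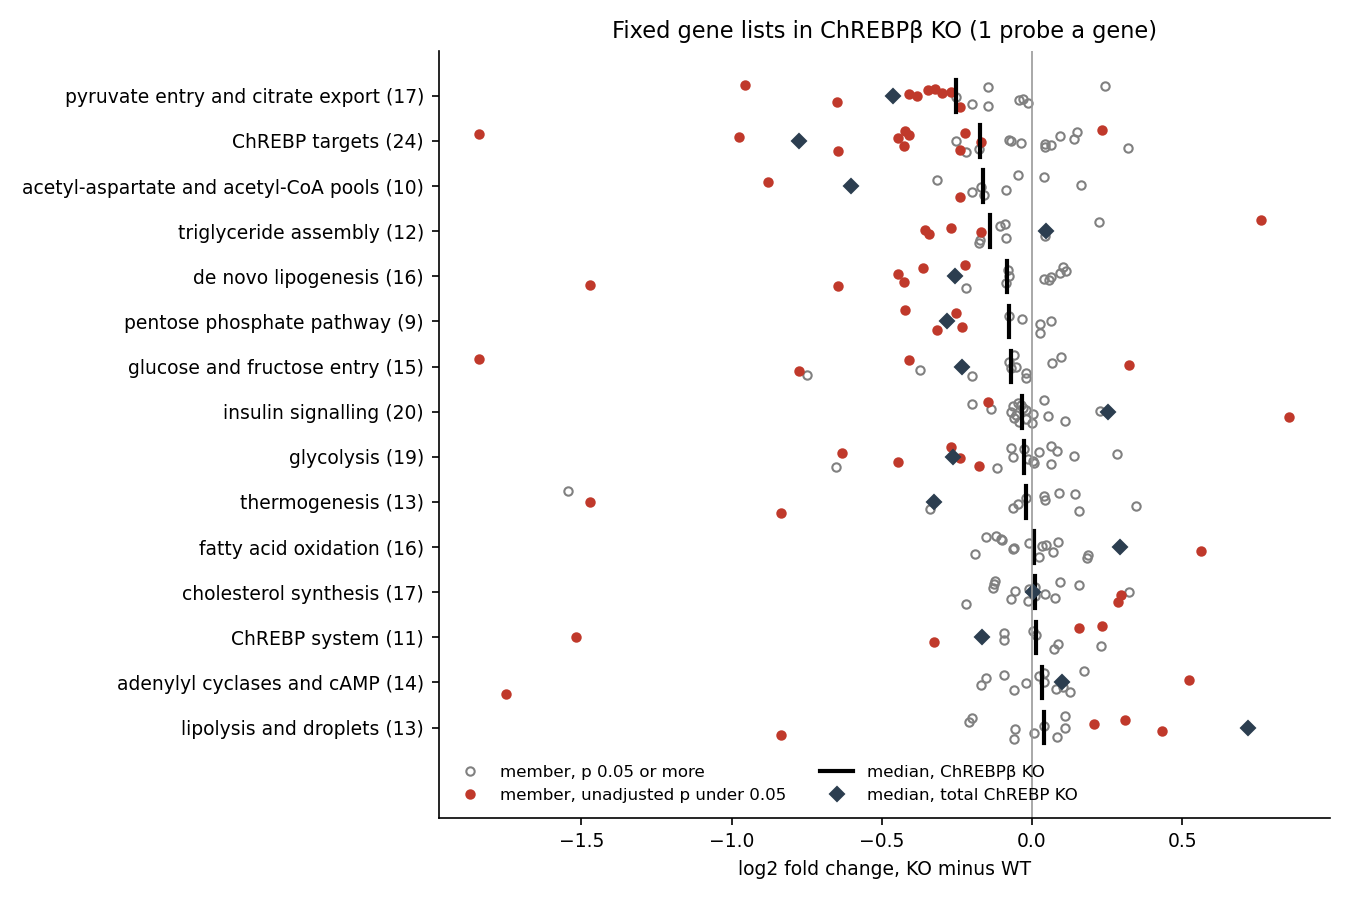
Log2 fold change in ChREBPβ KO (horizontal axis) of every tested member of 15 gene lists, filled where the unadjusted p was under 0.05, with the list's median as a bar and its median in total ChREBP KO as a diamond. The bars lie between -0.25 and 0.04, while the diamonds reach -0.78 for ChREBP targets and 0.72 for lipolysis and droplets.

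Markers of the tissue's cell types gave no call either. All 13 adipocyte markers, Adipoq and Fabp4 among them, were tested, and 11 of them had higher means in KO, 3 at an unadjusted p under 0.05. Their mean level ran from 15.70 to 16.10 in KO and from 15.75 to 15.96 in WT. Of 76 marker genes over 8 cell types, 0 were called by limma and 4 had an unadjusted p under 0.05. Over all genes 0.0512% were called, and 3.62% were lower and 4.18% higher at that p. With so small a share called, 0 calls among 76 genes say little of the markers. Macrophage markers had lower means in 9 of 10 genes, with array levels from 11.65 to 13.36 in KO and from 12.37 to 13.32 in WT. Red blood cell markers had higher means in 4 of 4 genes, and lymphocyte markers in 14 of 15, with array levels from 6.996 to 8.79 in KO and from 7.03 to 7.88 in WT. In total ChREBP KO the lymphocyte markers had a median of -2.53 and all 15 were called lower. With the scores of skeletal muscle and lymphocyte markers as covariates, 14 probes were called in ChREBPβ KO and the interaction count fell from 8755 to 2275.

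The genes that changed most in total ChREBP KO were looked up in ChREBPβ KO, and the comparisons share no array. There were 148 genes with a called change of at least 2 on the log2 scale and no overlap of arrays. Of 82 that fell, with a median of -2.43, the ChREBPβ KO median was -0.50. Their means were lower in ChREBPβ KO for 73 genes, 50 of them at an unadjusted p under 0.05, and 6 were called. Of 66 that rose, with a median of 2.30, the ChREBPβ KO median was 0.24, with 47 higher, 21 of them at that p, 2 lower at that p, and 0 called. Over all genes 50.5% had lower means and 0.0512% were called. At that p 3.62% of all genes were lower and 4.18% higher.

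The effect in ChREBPβ KO was smaller in nearly all of them. The interaction was called for 78 of the 82 falls and 64 of the 66 rises, against 22.5% of all probes. For 54 of the falls and 59 of the rises the 95% interval in ChREBPβ KO did not reach 0.5 times the total effect. The genes were picked for a large total effect, which enters both counts, so these counts are in part set by that choice. The total line also differed in cell markers, with all 15 lymphocyte markers called lower at a median of -2.53. With muscle and lymphocyte scores as covariates the interaction count over all probes fell from 8755 to 2275. The part of cell composition in the genes picked here was not tested. Examples of falls that were not called, named here after their values were seen, were Acot11, a thioesterase gene, at -1.99, Aspg, an asparaginase gene, at -1.93 and Pth1r, the parathyroid hormone receptor gene, at -1.34 (limma adjusted p between 0.123 and 0.191).

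**Figure D5:**
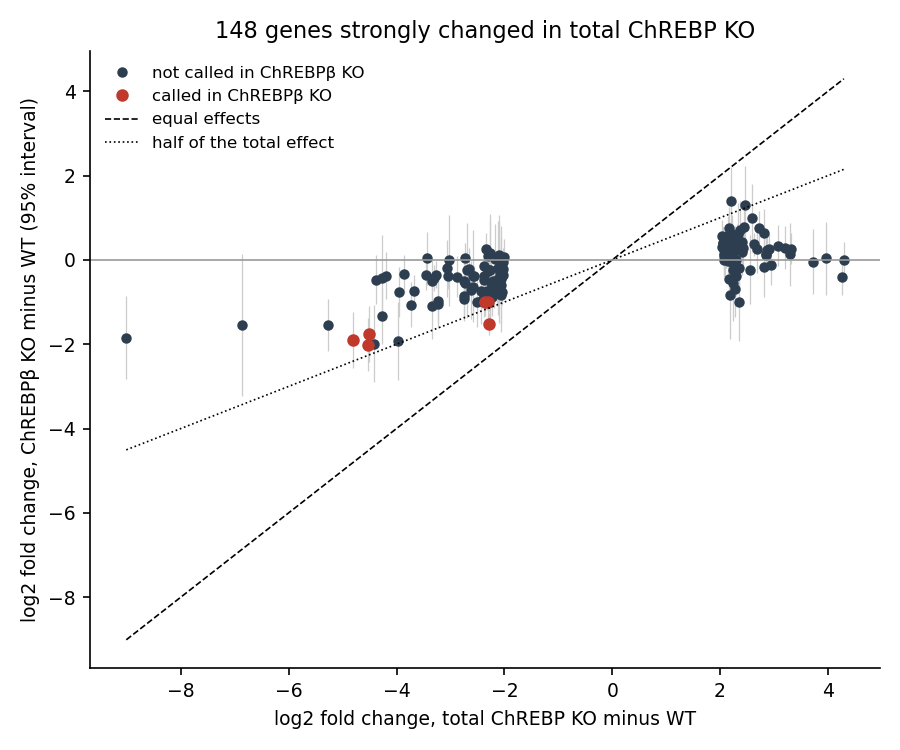
Log2 fold change in ChREBPβ KO with its 95% interval (vertical axis) against that in total ChREBP KO (horizontal axis) for the 148 genes that changed most in total ChREBP KO, with the lines of equal effects and of 0.5 times the total effect. Falls with a median of -2.43 on the horizontal axis have a median of -0.50 on the vertical axis, and the called genes are among the falls.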

How the data were processed

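The arrays were 1-colour Agilent mouse arrays. Per the file headers the authors extracted spots with Agilent Feature Extraction 10.10.1.1, and the deposited scanner files hold linear intensity values with quality calls. The authors also deposited a log2 table of the same arrays, made in R with a quality filter, quantile normalization and the median of replicate spots.

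The values used here were recomputed from the median spot intensity, without background subtraction and with 1 as the lowest intensity. Spots with outlier calls were set to missing. Replicate spots were resolved by their median, and log2 values were then quantile normalized. The methods name these steps in the other order, which was tried first and gave 14 calls. The order used came closer to the deposited table (SD of the difference 0.00387 against 0.0143 on the log2 scale), and the other order became an alternative. A probe stayed in when it was well above background on a minimum of 21 of the 26 arrays, or on a minimum of 75% of those of any single group.

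One mean per group was fitted over all 26 arrays with limma 3.58.1 in R 4.3.3 (22 residual degrees of freedom), with Benjamini-Hochberg adjustment over 38832 probes. The script was tested on simulated data. Symbols came from the array and were matched to RefSeq by symbol for 29902 probes, by accession for 1122 and by synonym for 324. No match was found for 7484. Probe positions are those of the array annotation (mm9), and no exon or UTR annotation of that build was used here.

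Named genes were Mlxipl at all its probes, every called gene, 12 genes the study followed, from each list any called member and up to 4 with the smallest p, and the 10 genes of smallest p that were not called and whose groups did not overlap. A gene stands for its brightest probe unless a probe is named. The members and the gene lists were chosen with earlier results of these data known. Wash batches came from the labels and slides from the scanner files. Alternatives changed the normalization, background, filters, spread, batch blocks, array weights, covariates and single arrays.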

Additional observations from a re-analysis of the deposited data

Results flagged for a closer look

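In 170 groups of arrays, those of each named probe in ChREBPβ KO and its WT, the array farthest out was set against the spread of its group by Dixon's ratio, the gap to the nearest array over the group's range. The limit was passed 10 times, and chance alone passes it in about 5% of groups. In ChREBPβ KO the ratio was 0.721 for Tkt (A_52_P631197), where KO replicate 2 read 5.65 and the next array 6.77. It was 0.828 for Cpeb2 and 0.895 for Thrsp, both with KO replicate 6 lowest. It was 0.787 for Rnf144b with KO replicate 4 highest, and 0.825 for Tsc1 with KO replicate 1 lowest. For Fasn, 0.857 with KO replicate 5 lowest reflects differences in the last digits of the top rank. In WT it was 0.570 for Cpeb2 and 0.669 for Insig1, both with WT replicate 2 highest, 0.574 for Prkacb with WT replicate 3 highest and 0.795 for Hmgcs1 with WT replicate 7 highest.

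The effect in ChREBPβ KO minus that in total ChREBP KO passed limma's interaction test for 18 of the 28 Mlxipl, called and study-gene probes, against 22.5% of all probes. The probes were picked as called or as genes the study followed, so this count is in part set by that choice. All 18 differences were positive on the log2 scale, that is, the effect was less negative in ChREBPβ KO. Fasn lies at the top rank of the normalization, where a difference can hardly be seen, and Prss35 was near background in total ChREBP KO. The largest were Ucp1 at 5.32, Sorcs2 at 2.90, Elovl6 at 2.87, Adcy10 at 2.76 (A_51_P256747) and 2.05 (A_55_P2715618), and Prss35 at 2.51. Acaca followed at 1.80, Cpt1b at 1.51, Susd1 at 1.35, Mapk8ip1 at 1.30, Cidea at 1.23, Tkt (A_52_P631197) at 1.17 and Hk2 at 1.102. Vps37d was at 0.80, Mlxipl (A_55_P2119957) at 0.77, Nat8l at 0.67, Cables1 at 0.44 and Fasn at 0.37.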

How the results depend on the processing

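The main values were 15 probes called in ChREBPβ KO and 8755 for the difference between KO effects. The first count was 2 with the line fitted alone, 9 with scaling to the 75th percentile of the processed signal, 8 with probes well above background on all 26 arrays, 23 with trended robust variance and 60 with array weights. With slide as a fixed block the counts were 0 (2018 at an unadjusted p under 0.05) and 616, and with the all-array filter the second was 5439. Muscle and lymphocyte scores as covariates gave 2275 for the second. Leaving out arrays high in muscle markers was chosen after seeing the data. A mean log2 level of 9 was tried first as the limit, which left 1 KO and 3 WT arrays and gave 22 calls, 1 of them shared with the main 15, and 433. A limit of 12 was then taken, which left 4 KO and 6 WT arrays and gave 75 calls, 13 of them shared, and 3711. The order of the normalization steps, also added later, gave 14. Without 1 array the first count ran from 2 to 106 and the second from 7164 to 9033. The remaining alternatives kept both counts within 1.5 times. The causes were not tested.

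With the replicate block the counts were 5 (3 of them among the main 15) and 5692. In the ChREBPβ line replicate numbers showed no pairing. The deviations of same-numbered KO and WT arrays correlated at 0.14, 0.02, 0.07 and -0.33, and none correlated best with its own number. In the total line they correlated at 0.51 for replicate 4 and 0.25 for replicate 8, each best with its own number. The remaining numbers of that line gave 0.11, -0.03, -0.17 and -0.36, none best with its own.

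The called probes kept their direction throughout and lost the call in 55 of 180 fits without 1 array and in 77 of 263 others. The differences that turned direction were not called. Fasn was -0.034 with the slide block, -0.055 with the 75th percentile of the median and -0.047 with that of the processed signal. Scd1 was -0.018, -0.039 and -0.039 there, and -0.15 with the muscle limit of 9, where Mxd4 was -0.040, Cyp51 0.21 and Mlxipl A_55_P2045158 -0.17. Without 1 array Cpt1b ran from -0.24 to 0.045 and Mlxipl A_55_P2045158 from -0.012 to 0.11. Signal near background limits Gprin2, Shisa8 and Tmprss9.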

Other observations

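Across the WT arrays of each line, the level of Mlxipl (A_55_P2119957) was set against that of the 14 other called probes, 28 relations in all, by exact two-sided permutation with Benjamini-Hochberg adjustment over them. The WT arrays of both lines also entered the fit that called these probes. No Spearman relation passed the adjustment (lowest exact adjusted p = 0.0778). In the WT of the ChREBPβ line (n = 7) 13 of 14 relations had a positive Pearson's r, with a median of 0.764, and in the WT of the total line (n = 7) 13 of 14 did, with a median of 0.755. The arrays share their normalization, and each wash batch held too few WT arrays for a value within it.

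Sorcs2 had an r of 0.963 in the WT of the ChREBPβ line (exact adjusted p = 0.0333, Spearman's rho 0.857), and 0.837 without the 2 arrays farthest from the Mlxipl median. In the WT of the total line its r was 0.505, and -0.04 without those 2 arrays, so the relation was not found in both lines. Mapk8ip1 had an r of 0.934 (exact adjusted p = 0.0167, rho 0.964) and 0.882 without the 2 farthest arrays. In the total line it was 0.559, and -0.17 without them. Castor1, which rose in ChREBPβ KO, had an r of 0.896 in the WT of the ChREBPβ line (exact adjusted p = 0.0422, rho 0.643), 0.577 without the 2 farthest arrays, and -0.534 in that of the total line. Prss35 had an r of 0.409 in the ChREBPβ line and 0.908 in the total line (exact adjusted p = 0.0422), 0.858 and 0.618 without the 2 farthest arrays. LOC105242387, which also rose, had an r of -0.867 in the ChREBPβ line, -0.53 without the 2 farthest arrays, and 0.217 in the total line. Nat8l had an r of 0.704 in the ChREBPβ line and 0.918 in the total line (exact adjusted p = 0.0333), 0.937 and 0.665 without the 2 farthest arrays, the same sign in each. Cables1 had an r of 0.828 in the ChREBPβ line and 0.882 in the total line, 0.891 and 0.839 without the 2 farthest arrays. For Hk2 the values were 0.824 and 0.879, and 0.891 and 0.645. None of these relations of Cables1 and Hk2 had an exact adjusted p under 0.05.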
